A study of Mus musculus with 8 samples.

Results

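Spdya, the gene of the cyclin-like CDK activator Speedy A, was compared between biliary cells of the mouse liver that had kept or lost a nuclear label, together with the kinases and cyclins of the G1 phase. The set held 9 of the 46603 genes counted: Spdya, the kinase genes Cdk2, Cdk4 and Cdk6, the D-type cyclin genes Ccnd1, Ccnd2 and Ccnd3, and the E-type cyclin genes Ccne1 and Ccne2. Spdya was chosen because its counts differed between the sorted populations, so its values are given as a description with no test. The other 8 genes were chosen by their function in the cell cycle, and 7 of them had enough reads to be tested.

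RNA was sequenced from 4 mice, named JV602, JV621, JV624 and JV6314, with 1 EGFP-positive and 1 EGFP-negative library of sorted liver cells from each. All mice were heterozygous for R26rtTA, a doxycycline-dependent transactivator in the ubiquitously active Rosa26 locus, and for H2B-EGFP, a nuclear histone label that such a transactivator switches on. Both populations of a mouse therefore carried the same alleles, had the same doxycycline treatment from day 0 to day 5 after birth, and were sorted from the same liver at 8 weeks. EpCAM-positive, CD45-negative cells that had kept the label are called LLRCs (liver label-retaining cells), and those that had lost it are called non-LRC cells. The label reports the divisions since the pulse and also the strength of the first labelling, so the groups are defined by EGFP and not by a measurement of cycling at the time of the sort. Per the study's supplement, spleen cells of such mice can carry EGFP without doxycycline, which limits the label outside the epithelium.

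Kinases of the CDK family are inactive on their own and are switched on by a bound partner. D-type cyclins pair with CDK4 and CDK6 early in G1 and start the phosphorylation of the retinoblastoma protein, and E-type cyclins pair with CDK2 at the entry into S phase. Speedy A, also called RINGO A, binds CDK2 and CDK1 and activates them without a cyclin and without the activating phosphorylation that cyclin-bound kinases need, and it is best known from meiotic germ cells, where it acts with CDK2 at telomeres.

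Spdya (ENSMUSG00000052525) lies on the plus strand of chromosome 17, at chr17:71552061-71589533 of GRCm38, with 4 annotated transcripts. The 250 bases before its annotated start are shown because the gene separated the populations in every library and this stretch lies directly before it. No annotated exon falls in this window. The sequence is from RefSeq (GRCm38.p6), with capitals on the matches to GGGCGG (the GC box) and to CCAAT on either strand.

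Spdya, chr17:71551811-71552060, plus strand: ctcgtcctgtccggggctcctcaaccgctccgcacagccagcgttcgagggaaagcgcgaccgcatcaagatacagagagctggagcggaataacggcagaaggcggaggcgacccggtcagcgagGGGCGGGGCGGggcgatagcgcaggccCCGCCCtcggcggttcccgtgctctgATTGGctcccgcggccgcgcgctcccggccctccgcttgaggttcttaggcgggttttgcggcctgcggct

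The window is 70.4% G and C, against a median of 52.4% over 32851 RefSeq windows of the same kind. It held 3 matches to GGGCGG, of which the first and second overlap, and 1 match to CCAAT on the minus strand. GGGCGG was found in 32.7% of all windows and CCAAT in 33.8%. The E2F-type strings TTTCCCGC and TTTGGCGC, which 0.895% and 0.417% of all windows held, were not among its letters, nor was TTTGAA (16.0% of all windows), the core of the cell cycle homology region. Windows of 6 of the 9 genes could be matched, and among these TTTCCCGC was found in that of Cdk2 alone, 1 time, beside 5 matches to GGGCGG.

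Spdya had 48, 62, 82 and 93 counts in LLRCs, with the mice in the order JV602, JV621, JV624 and JV6314 that is used for all values by library, and 0 counts in each of the 4 non-LRC libraries. As CPM (counts relative to library size, which was scaled with TMM factors), these were 4.65, 7.33, 12.1 and 10.3 in LLRCs, a mean of 8.59 ± 3.27 (SD, n = 4). All LLRC libraries stood above all non-LRC libraries, as the choice of this gene entails. Against a floor of 3 counts per library, which covers counting error only, Spdya was at least 16.6-fold higher in LLRCs. At the lowest level seen in LLRCs, and with counting error alone, the non-LRC libraries would have held 37.2, 22.3, 29.5 and 23.6 reads. Counts also fell to 0 in single non-LRC libraries for other genes. Ints8 and E2f6, each with more counts than Spdya in every LLRC library, had 0 in the non-LRC library of JV6314. The expected reads and the bound do not cover such losses. In bulk libraries, fewer cells that express a gene and less of its RNA per cell cannot be told apart, so these values do not show what share of the LLRCs carried the transcript.

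Among the 13605 genes with enough reads to be tested, 7, Spdya included, had no count in any non-LRC library. Such genes passed the filter on low counts through their LLRC libraries alone, at a median of 3.52 CPM there. The Spdya level in LLRCs was still moderate, at 3.91 ± 1.49 CPM per kb of exon, which is the 47.5th percentile of the tested genes.

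**Figure D1:**
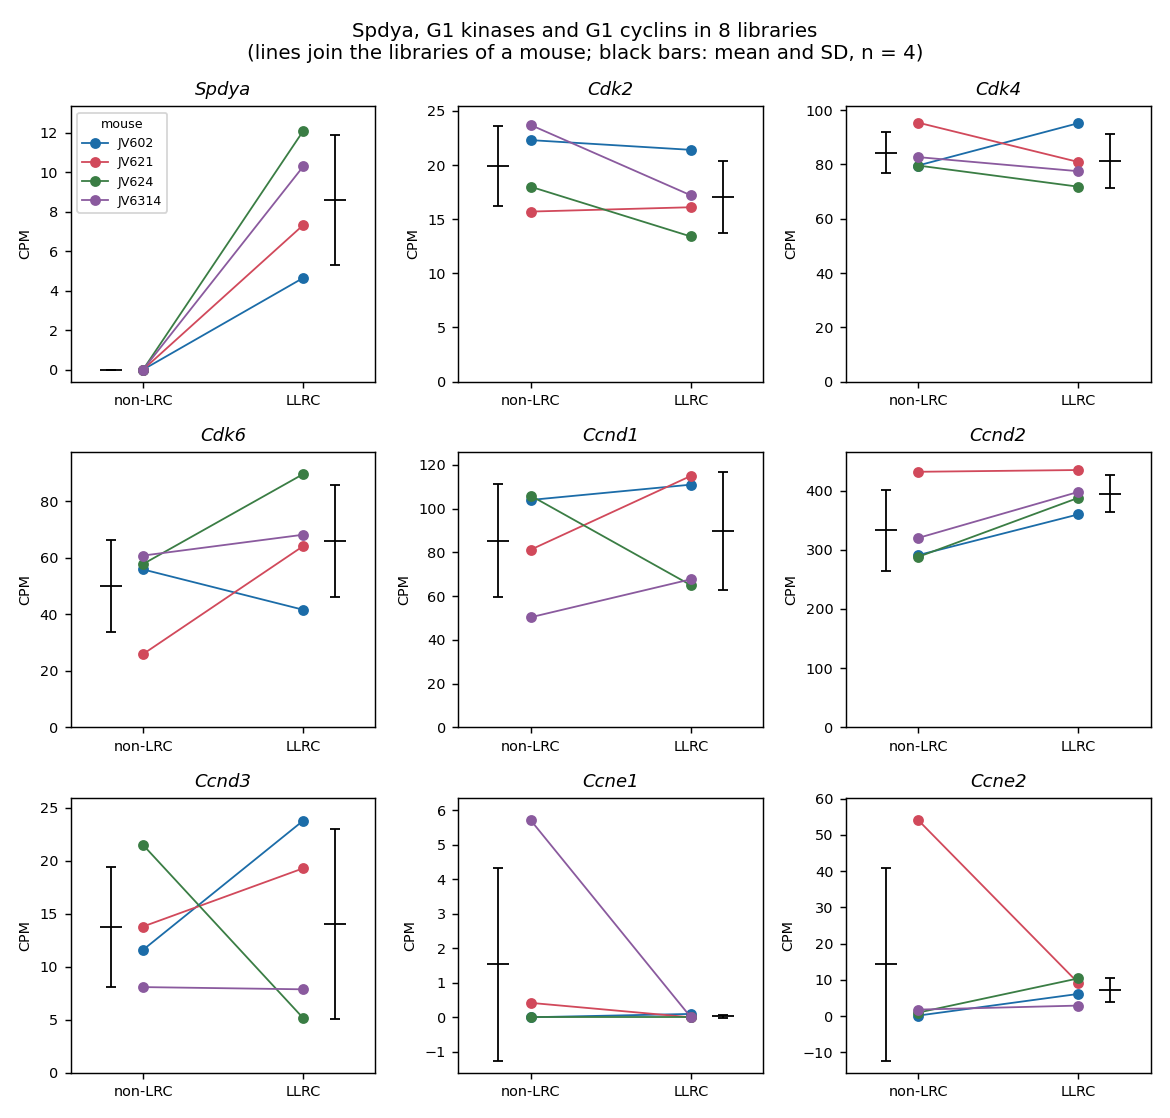
Level in CPM (vertical axis) of each of the 9 genes in the non-LRC and LLRC libraries, with a point for each library, lines joining the libraries of a mouse, and black bars for the mean and SD of 4 libraries. Spdya is at 0 in all non-LRC libraries and between 4.65 and 12.1 CPM in LLRCs, while the groups overlap for the other 8 genes and a single non-LRC library stands far above the rest for Ccne1 and for Ccne2.

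The counts were made without strand, and 29.7% of the exon bases of Spdya are shared with other annotated genes, where the counting mode assigns a read to neither. A 250-base exon of Spdya, 11.4% of its exon bases, lies inside the last exon of the pseudogene Mettl4-ps1 on the same strand, and 402 bases (18.3%) lie opposite exons annotated as Trmt61b. Mettl4-ps1 had 3, 3, 1 and 2 counts in LLRCs, against 3, 3, 0 and 8 in non-LRC cells. Trmt61b had 26, 24, 8 and 18 counts in LLRCs, against 19, 55, 6 and 1 in non-LRC cells (log2 fold change -0.80, SE 1.01, adjusted p = 1.00 in edgeR's quasi-likelihood test). Neither partner shared the split of Spdya, and the ranges of the groups overlapped for both.

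The nearest genes on each side were read in both populations or in few libraries. Wdr43, downstream, had 736, 609, 658 and 820 counts in LLRCs, against 678, 91, 315 and 403 in non-LRC cells, or 0.51 on the log2 scale (SE 0.44, adjusted p = 1.00 in the same edgeR test). Ndc80, which encodes a kinetochore protein and lies upstream on the minus strand, had 47 counts in LLRCs of JV621, 0 in the other LLRC libraries, and 3, 0, 3 and 1 in non-LRC cells. The on-off pattern was thus not seen in the adjoining annotation.

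The genes most like Spdya over the 8 libraries, by Pearson's r of log2 CPM, were Pbk, Cxcl10, Fgr, Slc1a4 and Mkrn3, with r between 0.974 and 0.996. All 5 had no count in the non-LRC libraries, and the shared split between the groups sets these values, so no p is given. Among the 4 LLRC libraries alone, r was 0.74, 0.69, 0.08, -0.29 and -0.37 in the same order of genes. Pbk, a mitotic protein kinase, had 17, 35, 25 and 27 counts in LLRCs. Cxcl10, a chemokine induced by interferon, had 12, 24, 14 and 27 counts, and Fgr, a SRC-family kinase of myeloid cells, had 41, 19, 24 and 39. Slc1a4, an amino acid transporter, had 44, 24, 29 and 20 counts and Mkrn3, a makorin ring finger gene, had 48, 53, 32 and 17.

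Markers of other cells also moved with the group and stand beside the Spdya result. Of 14 endothelial markers, 13 were tested and all 13 had lower values in LLRCs, among them Pecam1 and Vwf, at a median of -3.69 on the log2 scale, with an unadjusted p below 0.05 for each and an adjusted p below 0.05 for none. Their summed level was 37.5 to 84.8 CPM in LLRCs, against 298 to 1199 CPM in non-LRC cells, and none of them was at 0 in all libraries of a group. Of 10 hepatocyte markers, all tested, 9 had lower values in LLRCs and 1 (Alb, albumin) stood at 0.01, with a median of -1.37 on the log2 scale and an unadjusted p below 0.05 for 4, all lower. Their sums overlapped, at 3054 to 3534 CPM in LLRCs, against 2184 to 7771 CPM in non-LRC cells. Of 8 stellate cell markers, 5 were tested, 2 above 0 and 3 below, and 2 had an unadjusted p below 0.05, namely Lrat (log2 fold change -2.98, SE 0.49) and Dcn (-1.90, SE 0.72). The stellate sums overlapped, at 2466 to 9926 CPM in LLRCs, against 3498 to 9007 CPM in non-LRC cells. No marker of these lists had an adjusted p below 0.05 in edgeR's quasi-likelihood test.

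Of 10 leukocyte markers, 3 were tested, and the sums overlapped, at 38.2 to 73.1 CPM in LLRCs, against 44.7 to 93.3 CPM in non-LRC cells. Ptprc, the gene of the CD45 that the sort excluded, had 5, 34, 14 and 59 counts in LLRCs, against 0, 0, 0 and 7 in non-LRC cells (log2 fold change 3.27, SE 1.42, unadjusted p = 0.0468, adjusted p = 0.957 in the same edgeR test). Cd74, an antigen presentation gene, and Csf1r, a receptor of myeloid cells, were read in all 8 libraries, at log2 fold changes of -0.15 (SE 0.54) and -0.16 (SE 0.44). The T and B cell genes Cd3e and Cd79a had no count in any library. Lyz2 had 1, 2, 0 and 0 counts in LLRCs, against 5, 3, 24 and 11 in non-LRC cells. Adgre1, Cd52, Laptm5 and Coro1a had none in LLRCs, and Adgre1 had 0, 0, 39 and 8 in non-LRC cells. The 14 cholangiocyte markers summed to 113486 to 220472 CPM in LLRCs, against 65616 to 160745 CPM in non-LRC cells, nearly all of it from Spp1 (osteopontin). Of the 13 that were tested, 11 had a log2 fold change above 0 and 2 below, with a median of 0.29, and 1 had an unadjusted p below 0.05, namely Cftr, a chloride channel gene (log2 fold change 1.43, SE 0.47, adjusted p = 0.688 in the same edgeR test). The 13 markers other than Spp1 summed to 1409 to 1827 CPM in LLRCs, against 1129 to 1598 CPM in non-LRC cells, which is less than the hepatocyte sums. The part of these other transcripts in the Spdya result was not tested.

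Cdk2 encodes the kinase that Speedy A activates. It lies on the minus strand at chr10:128697939-128705031. It stood at 21.4, 16.1, 13.4 and 17.2 CPM in LLRCs, and at 22.3, 15.7, 18.0 and 23.7 CPM in the paired non-LRC libraries. The groups overlapped, with means of 17.0 ± 3.34 and 19.9 ± 3.72 CPM (SD, n = 4). The log2 fold change of LLRC over non-LRC was -0.23 (SE 0.33, 95% interval -0.98 to 0.53, adjusted p = 1.00 in edgeR's quasi-likelihood test with Benjamini-Hochberg adjustment). In this test 0 of the 13605 genes (0%) had an adjusted p below 0.05 and 702 (5.16%) had an unadjusted p below 0.05, while DESeq2's Wald test called 221 genes. Of the 7 tested kinase and cyclin genes, 0 had an adjusted and 0 an unadjusted p below 0.05.

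Spdya and Cdk2 can be set side by side per kb of exon, since one product acts through the other. The ratio of Spdya to Cdk2 was 0.615, 1.29, 2.55 and 1.70 in the 4 LLRC libraries, a mean of 1.54 ± 0.809 (SD, n = 4). On this scale Spdya stood above its kinase in 3 of 4 mice and below it in JV602. That order rests on the exon lengths, 2198 bases for Spdya and 6219 for Cdk2. In CPM, Spdya stood below Cdk2 in every LLRC library. The spread came from both genes, as JV602 had the least Spdya and the most Cdk2, and JV624 the most Spdya and the least Cdk2.

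Cdk4 and Cdk6 encode the kinases of the D-type cyclins. Cdk4 (plus strand, chr10:127063534-127067920) varied little, with 95.2, 80.9, 71.8 and 77.5 CPM in LLRCs, against 79.6, 95.4, 79.6 and 82.7 CPM in non-LRC cells. Its mean was 81.3 ± 9.97 CPM in LLRCs, against 84.3 ± 7.54 CPM in non-LRC cells (mean ± SD, n = 4). The log2 fold change was -0.05 (SE 0.23, 95% interval -0.58 to 0.47, adjusted p = 1.00 in the same edgeR test). The value was 0.02 without the non-LRC library of JV621 and 0.01 without the LLRC library of JV624, so single libraries set its sign. Exons of Tspan31 lie opposite 19.7% of its exon bases, and Tspan31 itself had a log2 fold change of 0.05 (SE 0.28).

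Cdk6 (plus strand, chr5:3341485-3531008) varied more, with 41.6, 64.2, 89.7 and 68.2 CPM in LLRCs, against 55.9, 25.9, 57.8 and 60.8 CPM in non-LRC cells. LLRCs were higher in 3 of 4 mice and the groups overlapped, the library of JV602 being the lowest LLRC library and the non-LRC library of JV621 the lowest of all. The means were 65.9 ± 19.7 and 50.1 ± 16.2 CPM (SD, n = 4), and the log2 fold change was 0.40 (SE 0.37, 95% interval -0.43 to 1.22, adjusted p = 1.00 in the same edgeR test). Without the non-LRC library of JV621 the log2 fold change was 0.19. That library had the fewest genes with a read, 14234 against 16042 to 20430 in the others.

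Ccnd2, a D-type cyclin gene, was the most abundant member per kb of exon. It lies on the minus strand at chr6:127125162-127152193. It stood at 360.0, 435, 388 and 398 CPM in LLRCs, and at 291, 432, 288 and 320.0 CPM in non-LRC cells. LLRCs were higher in 4 of 4 mice, by 0.31, 0.01, 0.43 and 0.31 on the log2 scale, a pattern that 7.68% of all tested genes had (5.73% were lower in 4 of 4), and in JV621 the difference was near 0. The group ranges overlapped through that mouse, with means of 395 ± 30.9 and 333 ± 67.8 CPM (SD, n = 4). The log2 fold change was 0.25 (SE 0.23, 95% interval -0.28 to 0.77, adjusted p = 1.00 in the same edgeR test), and 0.41 without the non-LRC library of JV621.

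Ccnd1, the D-type cyclin that mitogens induce, lies on the minus strand at chr7:144929931-144939925. It stood at 111, 115, 65.0 and 67.7 CPM in LLRCs, and at 104, 81.2, 106 and 50.3 CPM in non-LRC cells. Its groups overlapped over almost their whole range, with means of 89.5 ± 26.8 and 85.4 ± 25.9 CPM (SD, n = 4) and a log2 fold change of 0.07 (SE 0.34, 95% interval -0.70 to 0.83, adjusted p = 1.00 in the same edgeR test). The sign of this difference turned without the LLRC library of JV602 (-0.04), that of JV621 (-0.06) or the non-LRC library of JV6314 (-0.11). Exons annotated as LTO1 lie opposite 23.4% of its exon bases.

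Ccnd3 (plus strand, chr17:47505051-47599691) was the scarcest of the D-type cyclins and the one that differed most between mice. It stood at 23.8, 19.3, 5.15 and 7.88 CPM in LLRCs, and at 11.6, 13.8, 21.5 and 8.09 CPM in non-LRC cells. Within mice the LLRC library was higher by 1.03 and 0.48 on the log2 scale in JV602 and JV621, while the differences in JV624 and JV6314 were -2.05 and -0.04. The log2 fold change was 0.03 (SE 0.57, 95% interval -1.25 to 1.31, adjusted p = 1.00 in the same edgeR test) and -0.09 with the mouse as a block, so no direction can be given.

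Per kb of exon the D-type cyclins summed to 62.6 ± 7.80 CPM in LLRCs, against 55.0 ± 7.82 CPM in non-LRC cells (mean ± SD, n = 4). Ccnd2 made up 59.4% to 74.1% of that sum in LLRCs and 55.1% to 74.6% in non-LRC cells, and Ccnd3 at most 4.22% and 4.40%. Cyclin D2 transcripts were thus the major D-type cyclin transcripts in all 8 libraries. The ratio of Cdk6 to Cdk4 was 0.195 ± 0.0776 in LLRCs and 0.142 ± 0.0524 in non-LRC cells, so Cdk4 was the main D-type cyclin kinase transcript in both.

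**Figure D2:**
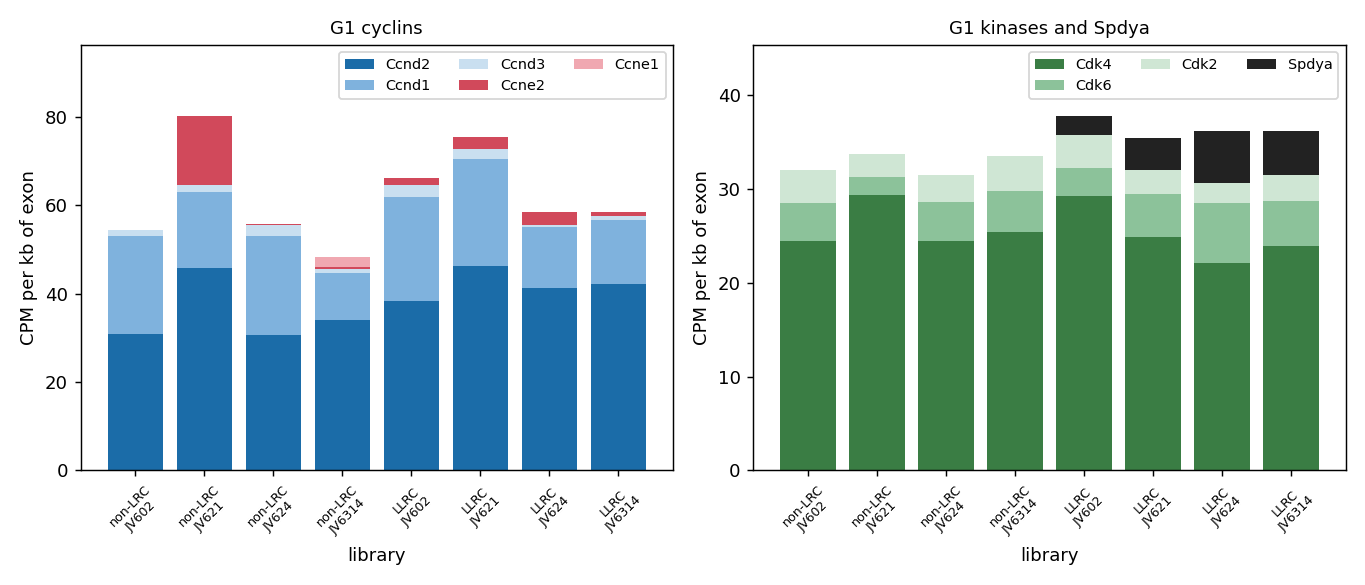
Level per kb of exon (vertical axis, CPM per kb) of the G1 cyclins (left) and of the G1 kinases with Spdya (right), stacked for each of the 8 libraries. Ccnd2 and Cdk4 make up most of each bar, Spdya adds 2.12 to 5.49 CPM per kb in LLRCs alone, and Ccne2 stands out in the non-LRC library of JV621 at 15.5 CPM per kb.

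Ccne2 (plus strand, chr4:11191351-11204779) and Ccne1 (minus strand, chr7:38097984-38107534) encode the cyclins that share CDK2 with Speedy A. Ccne2 had 63, 77, 71 and 26 counts in LLRCs, against 1, 259, 6 and 9 counts in non-LRC cells. All LLRC libraries stood above the non-LRC libraries of JV602, JV624 and JV6314, and the non-LRC library of JV621 stood above all others. In CPM the LLRC libraries held 6.11, 9.11, 10.4 and 2.89 (mean 7.14 ± 3.36, SD, n = 4) and the non-LRC libraries 0.125, 54.1, 0.947 and 1.78 (mean 14.2 ± 26.6).

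One library decided the sign of this difference. With all libraries the log2 fold change was -0.99 (SE 1.40, 95% interval -4.16 to 2.18, adjusted p = 1.00 in edgeR's quasi-likelihood test). With the mouse as a block it was 1.71 (adjusted p = 1.00). Without the non-LRC library of JV621 it was 2.94, with an adjusted p of 0.363 in the same edgeR test, the smallest that any of the 7 tested kinase and cyclin genes reached under any setting, and the non-LRC mean was 0.949 ± 0.825 CPM (SD, n = 3). LLRCs were higher than the paired non-LRC cells in 3 of 4 mice. Ints8, whose exons lie opposite 17.4% of the Ccne2 exon bases, was also highest in the non-LRC library of JV621, with 161, 305, 163 and 190 counts in LLRCs, against 68, 501, 113 and 0 in non-LRC cells. Its part in the Ccne2 value was not tested.

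Ccne1 was hardly read. It had 1, 0, 0 and 0 counts in LLRCs, against 0, 2, 0 and 29 in non-LRC cells, and was not tested. The 29 counts, 5.72 CPM, lay in the non-LRC library of JV6314, and without it the non-LRC mean was 0.139 CPM. This library also held pancreatic acinar transcripts, which sum to 1163 CPM over 10 markers there and to between 1.89 and 22.9 CPM in the other 7 libraries. Cpb1, a pancreatic carboxypeptidase gene, had 1388 counts there and 0 or 1 elsewhere. The part of these transcripts in the Ccne1 value was not tested.

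**Figure D3:**
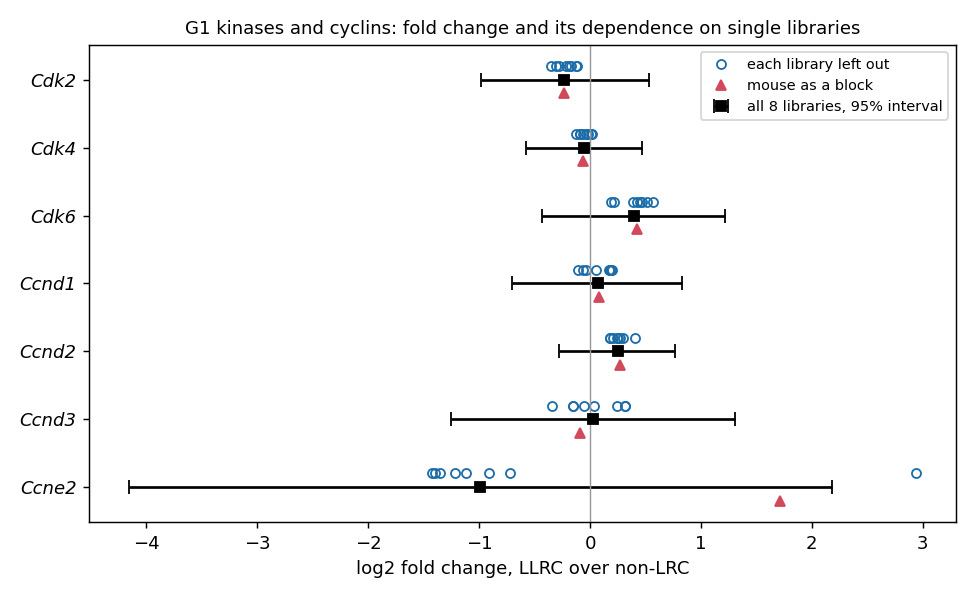
Log2 fold change of LLRC over non-LRC (horizontal axis) for the 7 tested kinases and cyclins, with squares and 95% intervals for all 8 libraries, open circles for fits with each library left out, and triangles for the fit with the mouse as a block. All 7 intervals span 0, and for Ccne2 leaving out the non-LRC library of JV621 moves the value from -0.99 to 2.94.

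Of the 7 tested kinases and cyclins, 4 had a log2 fold change above 0 and 3 below. The ranges of the groups overlapped for all 8 kinases and cyclins, while 2.15% of all tested genes had LLRC libraries entirely above and 1.91% entirely below the non-LRC libraries. The intervals differed in width, from -0.58 to 0.47 for Cdk4 to -4.16 to 2.18 for Ccne2. Among Cdk2, Cdk4, Cdk6, Ccnd1, Ccnd2 and Ccnd3, the widest was that of Ccnd3 (-1.25 to 1.31), and larger changes lay outside all of these intervals. They are not set against the bound of Spdya, as that gene was chosen on this contrast. For Ccne2, whose interval rests on the non-LRC library of JV621, no such limit is given.

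Ordered by level per kb of exon in LLRCs, the genes ran from Ccnd2 (42.0 CPM per kb) over Cdk4 (25.0), Ccnd1 (19.0), Cdk6 (4.71), Spdya (3.91), Cdk2 (2.74), Ccne2 (2.04) and Ccnd3 (1.60) to Ccne1 (0.00910). Ccnd2 lay above Cdk4 in every LLRC library, and Ccnd1 above Cdk6. The ranges of Cdk4 and Ccnd1 overlapped, as did those of each neighbouring pair from Cdk6 to Ccnd3. Spdya was thus not separated from Cdk6 or Cdk2 in level per kb, while in CPM it stood below both in every LLRC library. The lengths include exon bases shared with other genes, 29.7% for Spdya, 2.63% for Cdk6 and 0.547% for Cdk2, and were not corrected for them. In non-LRC cells the order of the means was Ccnd2 (35.4 CPM per kb), Cdk4 (26.0), Ccnd1 (18.1), Ccne2 (4.07), Cdk6 (3.58), Cdk2 (3.20), Ccnd3 (1.57), Ccne1 (0.577) and Spdya at 0. The place of Ccne2 there came from the library of JV621 (15.5 CPM per kb), as in the other 3 libraries it stood at 0.0358, 0.271 and 0.508 CPM per kb, below Cdk6, Cdk2 and Ccnd3.

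The regulators around these kinases were read next, together with genes of S, G2 and M phase, Speedy relatives and meiosis genes. These lists held 68 genes, of which 66 were in the table and 38 were tested. Of the 38, 20 had a log2 fold change above 0 and 18 below, with a median of 0.01 against -0.01 over all genes tested, where 48.9% were above 0. No list gene had an adjusted p below 0.05 in edgeR's quasi-likelihood test, and 1 had an unadjusted p below 0.05, a smaller share than the 5.16% of all genes tested. With the mouse as a block, 26 of the 38 were above 0, in a fit that also moved the median of all genes up by 0.158.

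That gene was Rbl2, which encodes the pocket protein p130, a relative of the retinoblastoma protein that binds E2F4 and E2F5 in quiescent cells. It had 785, 680, 383 and 609 counts in LLRCs, against 300, 143, 204 and 126 in non-LRC cells. The mean was 70.1 ± 10.6 CPM in LLRCs, against 31.1 ± 5.28 CPM in non-LRC cells (mean ± SD, n = 4). LLRCs were higher in 4 of 4 mice (7.68% of all tested genes were), by a log2 fold change of 1.17 (SE 0.27, unadjusted p = 0.00202, adjusted p = 0.275 in edgeR's quasi-likelihood test), and the call depended on the tool, as DESeq2's Wald test gave an adjusted p of 4.33e-04. Rb1, the retinoblastoma gene itself, had a log2 fold change of -0.20 (SE 1.13), with 339, 67, 64 and 74 counts in LLRCs, against 139, 0, 57 and 207 in non-LRC cells. Rbl1, which encodes p107, had a log2 fold change of 1.44 (SE 1.02).

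Of the 7 CDK inhibitor genes, 5 were tested, 2 with a value above 0 and 3 below. Cdkn1b, which encodes the CDK2 inhibitor p27, stood at 355 ± 197 CPM in LLRCs, against 354 ± 279 CPM in non-LRC cells (mean ± SD, n = 4), and its log2 fold change was 0.01 (SE 0.57, adjusted p = 1.00 in the same edgeR test). Cdkn1a, the p21 gene, stood at 16.2 ± 9.76 and 11.1 ± 3.26 CPM, a log2 fold change of 0.55 (SE 0.53). Of those not tested, Cdkn2a had no count in any library, and Cdkn2b, the p15 gene, had 0, 2, 14 and 12 counts in LLRCs, against 0 in each non-LRC library. No tested inhibitor gene passed the test in either direction.

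Of the 10 E2F and DP genes, 6 were tested, 3 in each direction. E2f5, the most abundant per length, stood at 100.3 ± 19.8 CPM in LLRCs, against 101 ± 44.4 CPM in non-LRC cells, and Tfdp2, a DP partner of E2F, had a log2 fold change of -0.88 (SE 0.70).

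Of the 7 genes for CDK activation and its brake, 6 were tested, 5 above 0 and 1 below. Cdk7 and Ccnh, the kinase and the cyclin of the complex that phosphorylates cyclin-bound CDKs, had log2 fold changes of 0.32 (SE 0.36) and 0.07 (SE 0.37). Cdc25a, a phosphatase that activates CDK2, had 190, 137, 130 and 123 counts in LLRCs, against 116, 6, 40 and 2 in non-LRC cells (log2 fold change 1.57, SE 0.88, adjusted p = 1.00 in the same edgeR test). LLRCs were higher in 4 of 4 mice for this gene, as for 7.68% of all tested genes, and in CPM its groups overlapped through the non-LRC library of JV602. None of the 6 passed the test.

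The G1 ubiquitin ligase genes were all tested, 3 above 0 and 2 below. Skp2, the F-box protein that marks p27 for degradation, had 2, 47, 18 and 88 counts in LLRCs, against 13, 0, 0 and 2 in non-LRC cells (log2 fold change 3.05, SE 1.38, adjusted p = 0.964 in the same edgeR test), and the groups overlapped through the LLRC library of JV602. Cul1, the scaffold of that ligase, and Cks1b, its cofactor, had log2 fold changes of -0.15 (SE 0.35) and 0.79 (SE 0.68).

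Of 18 genes of S, G2 and M phase, 11 had enough reads to be tested, 5 above 0 and 6 below. Pcna, the DNA polymerase clamp, stood at 60.0 ± 15.9 CPM in LLRCs, against 73.3 ± 43.5 CPM in non-LRC cells, and Mcm6, a subunit of the replicative helicase, at 40.9 ± 16.1 and 40.7 ± 15.9 CPM (mean ± SD, n = 4). Mki67, the gene of the proliferation marker Ki-67, was too low to test, with 29, 28, 0 and 12 counts in LLRCs, against 0, 1, 4 and 0 in non-LRC cells. The groups overlapped for it through the LLRC library of JV624.

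Genes that work in meiosis, where Speedy A is best known, had few reads or none in most cases. Of 14 meiosis genes, 13 were in the table, 5 had no count in any library and 2 were tested. Sun1, a nuclear envelope protein that links telomeres to the cytoskeleton in meiosis and is used in somatic cells too, had a log2 fold change of -0.36 (SE 0.40), and Meiob, a meiotic single-strand DNA binding protein, one of -0.99 (SE 1.41). Terb1, which ties telomeres to the envelope, had 14 counts in LLRCs of JV621, 246 in the non-LRC library of JV602 and 0 elsewhere. Of the Speedy relatives, Spdye4a had no count, Spdye4c had 1 count in LLRCs of JV621, and Spdye4b had 137 counts in the non-LRC library of JV621 and 0 elsewhere. Neither the relatives nor the meiosis genes shared the split of Spdya.

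**Figure D4:**
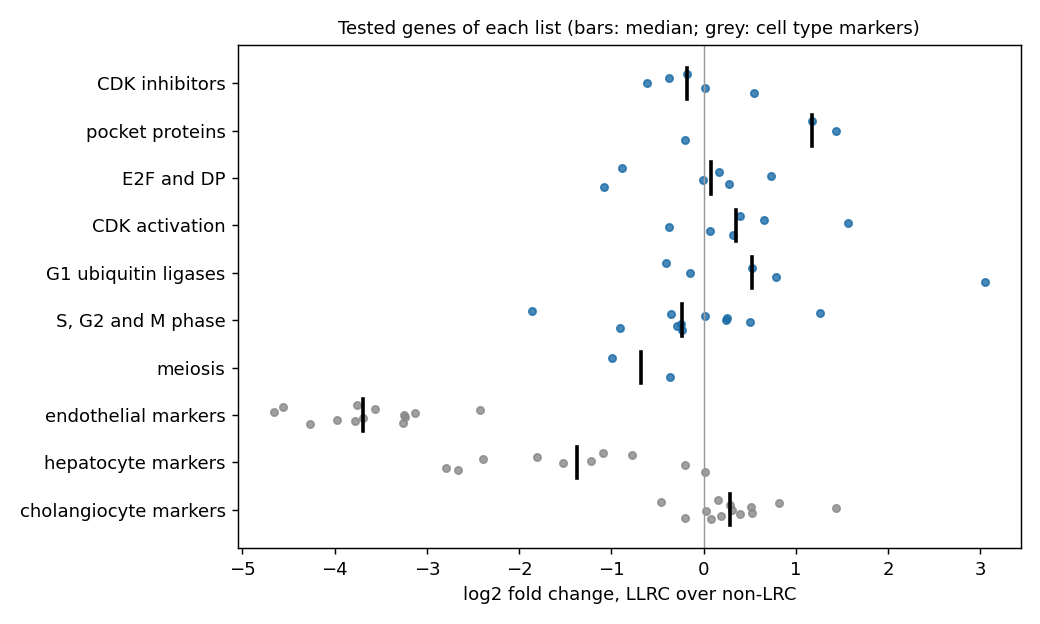
Log2 fold change of LLRC over non-LRC (horizontal axis) of every tested gene in the 7 cell cycle and meiosis lists (blue) and in 3 cell type marker lists (grey), with bars for each list's median. The cell cycle genes lie on both sides of 0, the 38 genes of the 7 lists have a median of 0.01, and all 13 endothelial markers lie below 0, at a median of -3.69.

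The LLRC libraries also differed from each other in how Spdya, Ccnd1 and Ccnd3 were combined, a pattern picked after the values were seen and given with no test. JV624 and JV6314, the mice with the most Spdya (12.1 and 10.3 CPM), had the least Ccnd1 (65.0 and 67.7 CPM) and the least Ccnd3 (5.15 and 7.88 CPM) among the LLRC libraries, and their D-type cyclins summed to 55.6 and 57.5 CPM per kb against 64.4 and 72.8 in JV602 and JV621. Ccnd2, the major D-type cyclin transcript, did not follow, at 388 and 398 CPM in these mice against 360.0 and 435. Their summed cholangiocyte markers, mostly Spp1, were also higher, at 220472 and 199401 CPM against 113486 and 146672, and the part of that difference was not tested.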

How the data were processed

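RNA from sorted LLRC and non-LRC cells of 4 mice was sequenced in 8 libraries. The authors' service facility mapped the reads (the aligner is not given in the sources used here), and the authors counted them per Ensembl gene of GRCm38.p4 with HTSeq (union mode, exons, unstranded). The deposited values are raw counts for 46603 genes. The authors' table of their edgeR 3.2.4 comparison, which holds log2 fold changes, average abundances, p-values and adjusted p-values, was not used.

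Total counts were 7860021 to 9851819 in LLRC libraries and 4670132 to 8056103 in non-LRC libraries, so that 3 counts correspond to 0.291 to 0.626 CPM. Floors cover counting error only. TMM factors were 0.816 to 1.23. The 13605 genes that passed edgeR's filterByExpr were compared by the quasi-likelihood test of edgeR 4.0.16 (R 4.3.3, legacy dispersion) with the group as the only term and Benjamini-Hochberg adjustment, at a threshold of 0.05. The script was tested on simulated data. The methods of the study name edgeR but no test or filter. There were 22 alternatives (scalings, filters, DESeq2 1.42.0, limma 3.58.1, edgeR's exact test and newer dispersion, the mouse as a block, and libraries or mice left out), and 2 levels were added after seeing the data.

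The mouse pairs the libraries, as each animal gave an LLRC and a non-LRC library. Across genes, paired libraries deviated from their group means with correlations of 0.096 (JV602), 0.074 (JV621), 0.003 (JV624) and 0.171 (JV6314).

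Symbols were found for 46005 of the 46603 identifiers. Coordinates, exon lengths and overlaps are from GENCODE M21 (GRCm38), which is not the annotation release used for the counts. Motifs were searched on both strands in the 250 bases before each RefSeq start. The members and lists were chosen with earlier results of these data known. The genes named are the members, of each cell cycle and meiosis list those with a p below 0.05 and the 2 highest per length, the neighbours of Spdya, the 5 genes most like it, and at most 2 markers of each cell type. Rbl1, Cdkn2a, Cdkn2b, E2f6, Cdc25a, Skp2, Mki67, Terb1, Spdye4a and the leukocyte markers beyond Ptprc and Cd74 were added after their values were seen.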

Additional observations from a re-analysis of the deposited data

Results flagged for a closer look

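Each of the 9 genes was examined in each group of 4 libraries for a sample that stood apart from the other 3 by Dixon's criterion, and 4 of the 18 groups held one. Chance flags about 1 in 20 groups, but a group with 3 values tied at 0, such as Ccne1 in LLRCs, is flagged for any other value above 0, so the count of 4 is not set against that rate. In non-LRC cells, the library of JV621 stood apart at 25.9 CPM for Cdk6, below the others, and at 54.1 CPM for Ccne2, above the others. The non-LRC library of JV6314 stood apart for Ccne1, at 5.72 CPM. In LLRCs, the library of JV602 stood apart for Ccne1 at 0.0969 CPM, which is a single read.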

How the results depend on the processing

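Adjusted p-values of the 7 tested kinases and cyclins stayed above 0.05 under all 22 alternatives, the smallest being 0.363 for Ccne2, for which DESeq2 gave no adjusted p. Log2 fold changes of Cdk2 (-0.35 to -0.12 with a library or a mouse left out), Cdk6 (0.19 to 0.60) and Ccnd2 (0.18 to 0.41) kept their sign throughout. With a library or a mouse left out, Cdk4 ranged from -0.18 to 0.02, Ccnd1 from -0.11 to 0.32, Ccnd3 from -0.44 to 0.61 and Ccne2 from -1.62 to 2.94. The Spdya bound ranged from 14.4 to 19.2 with each library left out. Without both libraries of JV621, Cdk4 was 0.02, Ccnd1 -0.09, Ccnd3 -0.15 and Ccne2 2.79. Without both of JV602, Ccnd3 was -0.44, and without both of JV6314, Ccnd1 was 0.00. Limma gave -0.01 for Ccnd1, -0.11 for Ccnd3 and 3.39 for Ccne2, DESeq2's Wald test 0.00 and its size factors -0.01 for Ccnd3. With the mouse as a replicate block, Ccnd3 was -0.09 and Ccne2 1.71, no gene was called, 569 had an unadjusted p below 0.05, and no other member's direction or call changed. The block and limma moved the median of all genes by 0.158 and 0.116. A floor of 1 count put Spdya at least 49.9-fold higher. Over all genes, 11 were called with no filter, 221 by DESeq2, 159 by the exact test, 73 with the newer dispersion, and 0 to 6 with a library left out (6 without the non-LRC library of JV602). Of the cell cycle lists, DESeq2 called 1 gene (Rbl2). With no filter 31 of 57 list genes were above 0, with the block or limma 26 of 38, and with a library left out 20 to 25. The causes were not tested. Low counts of Ccne1, and the non-LRC libraries' lower depth, limit what could be seen of scarce transcripts.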
